A study of Mus musculus with 10 samples.

Results

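Transcripts of 10 genes of the growth hormone, IGF and insulin axis were followed in mouse liver: Ghr, Igf1, Igfals, Igfbp1, Igfbp2, Igfbp3, Igfbp4, Insr, Irs1 and Irs2. They were chosen by gene symbol, for what their proteins are known to do, out of 38922 genes in the tables. All 10 were among the 13719 genes that passed the filter on low counts, and the lowest count of any of them in a mouse was 27. Wild-type male C57BL/6N mice aged 6 weeks were injected intraperitoneally with saline or with CD95-Ab at 0.5 µg/g, the agonistic antibody against the death receptor CD95 (Fas), and livers were harvested 6 h later (n = 5 mice per group). Each mouse gave 1 library of total liver RNA, so all cell types of the organ are mixed. Levels within a gene are given as CPM, counts per 1000000 of the TMM-adjusted total of a library, and levels between genes as FPKM, which also divides by transcript length, and values with ± are mean ± SD over the 5 mice of a group.

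Growth hormone from the pituitary binds its receptor, encoded by Ghr, and signals through JAK2 and STAT5 to switch on Igf1 in hepatocytes, the main source of circulating IGF-1. In blood most IGF-1 is carried in a ternary complex with IGFBP-3, made largely by non-parenchymal liver cells, and with the acid-labile subunit, made by hepatocytes from Igfals. IGFBP-1, IGFBP-2 and IGFBP-4 carry IGF-1 in smaller complexes, and hepatic Igfbp1 is repressed by insulin and raised by fasting and stress. Insulin acts on hepatocytes through its receptor, encoded by Insr, and through the adaptors IRS-1 and IRS-2, and it keeps FOXO1 out of the nucleus, which lowers FOXO targets such as Igfbp1, Irs2 and G6pc.

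Depth lay between 25965699 and 62097636 counts per mouse, at which 3 counts are 0.0483 to 0.116 CPM, so every gene of the axis was far above the counting limit. The 15 hepatocyte markers, Alb among them, summed to 126350 to 155930 CPM in controls and to 60445 to 102280 CPM in treated mice, and 9 of them fell and none rose at an FDR of 0.05 or less. None of these markers was at 0 in all saline-injected mice or in all mice, so the liver label held. Among markers of other cells, 8 of 10 endothelial, 6 of 10 stellate and 4 of 6 cholangiocyte genes rose. So did 8 of 10 lymphocyte, 6 of 8 neutrophil and 6 of 6 erythroid genes. Of all tested genes, 25.4% were called higher and 22.0% lower. The macrophage list was near that share, with 3 of 10 genes higher and 7 not called. The summed erythroid level went from 135 to 325 CPM up to a range of 1064 to 34009 CPM. Fewer hepatocytes and less RNA of these genes per hepatocyte cannot be told apart in whole liver. Differences are therefore also given with libraries scaled to the hepatocyte markers, a scaling that moved the median log2 fold change of all tested genes from 0.006 to 0.81. Relative to that shift, the genes whose sign turned under this scaling stood at -0.39 (Ghr), -0.34 (Igf1), -0.15 (Igfbp3), -0.71 (Igfbp4) and -0.36 (Insr). Taking off the shift largely undoes the scaling, so these values add nothing to those without it.

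The upstream sequences of Igfbp1, Irs2, Irs1 and G6pc are shown first, as those of the genes searched that hold a short insulin response core, CAAAACA. FOXO proteins bind this core, which is the sequence through which insulin is known to repress Igfbp1. Each line holds the 250 bases before the RefSeq transcription start (GRCm38.p6), 5′ to 3′ on the strand of the gene, and capitals mark every CAAAACA or its complement TGTTTTG, and in Igfbp1 also the stretch up to a TATTTTG that follows CAAAACA after 4 bases.
Igfbp1, chr11:7197537-7197786, plus strand: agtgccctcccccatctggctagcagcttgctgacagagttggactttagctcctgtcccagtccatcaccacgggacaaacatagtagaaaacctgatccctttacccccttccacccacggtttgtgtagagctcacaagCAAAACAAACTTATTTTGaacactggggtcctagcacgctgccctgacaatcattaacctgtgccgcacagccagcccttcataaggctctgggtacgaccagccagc
Irs2, chr8:11008930-11009179, minus strand: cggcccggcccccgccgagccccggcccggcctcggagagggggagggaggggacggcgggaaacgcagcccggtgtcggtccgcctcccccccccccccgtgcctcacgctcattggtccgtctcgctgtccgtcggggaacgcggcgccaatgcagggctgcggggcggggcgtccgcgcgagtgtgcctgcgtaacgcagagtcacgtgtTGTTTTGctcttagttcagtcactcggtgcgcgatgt
Irs1, chr1:82291440-82291689, minus strand: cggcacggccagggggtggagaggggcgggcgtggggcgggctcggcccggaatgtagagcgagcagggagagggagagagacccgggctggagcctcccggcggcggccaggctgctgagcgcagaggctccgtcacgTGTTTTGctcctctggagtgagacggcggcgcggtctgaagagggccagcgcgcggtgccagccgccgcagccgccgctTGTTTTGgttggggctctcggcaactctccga
G6pc, chr11:101367466-101367715, plus strand: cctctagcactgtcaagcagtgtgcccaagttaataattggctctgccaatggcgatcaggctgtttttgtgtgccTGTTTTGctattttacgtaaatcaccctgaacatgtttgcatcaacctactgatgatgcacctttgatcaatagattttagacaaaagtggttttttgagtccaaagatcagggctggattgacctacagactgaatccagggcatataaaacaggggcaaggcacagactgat
On either strand, CAAAACA was present in 5.56% of the 32851 upstream windows of this length. The pair of CAAAACA and TATTTTG was present in 1 of these windows, that of Igfbp1, where it begins 108 bases before the start. The letters and gap of this pair are those of the Igfbp1 sequence, so its match there was fixed in advance and is no result. The windows of Igf1, Ghr, Igfals, Igfbp2, Igfbp3 and Igfbp4 held no CAAAACA, nor did that of Pck1, another gene that insulin represses. Another FOXO core, GTAAACA, present in 3.17% of upstream windows, was also searched. Among the genes searched it was found only in Igfals, beginning 242 bases before the second annotated start. As given below, Igfbp1 and Irs2 rose while Irs1 and G6pc fell, so genes with CAAAACA in the window changed in both directions. For Irs1 and Irs2 the bases just after the RefSeq start were not found in a transcript of the GENCODE M21 annotation. Which start is used in these livers was not examined. A match of letters is a description and does not show that a factor was bound.

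Across the axis, 7 of 10 genes changed at an FDR of 0.05 or less, with Igfbp1 and Irs2 higher and Ghr, Igfals, Igfbp2, Igfbp4 and Irs1 lower after CD95-Ab. Of all tested genes, 47.3% passed the same test, 25.4% as higher and 22.0% as lower, so the share of called genes was not far above that of the transcriptome. In size, 1 gene of the axis, Igfbp1, passed a log2 value of 2 upward, as did 6.59% of tested genes, and none passed -2 downward, as did 1.11%. In 3 of the 10 genes the groups did not overlap (Igfbp1 above, Igfals and Igfbp4 below), against 33.3% of all tested genes, 18.6% above and 14.7% below. DESeq2 called 2 genes of the axis higher and 7 lower (26.4% and 24.6% of tested genes), limma on FPKM called 1 and 6 (20.7% and 23.9%), and edgeR with the replicate number as a block called 2 and 4 (24.1% and 19.5%). With libraries scaled to the hepatocyte markers, Igfbp1, Irs2, Igf1 and Igfbp3 were called higher and none was called lower, against 65.6% and 2.54% of all tested genes.

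**Figure D1:**
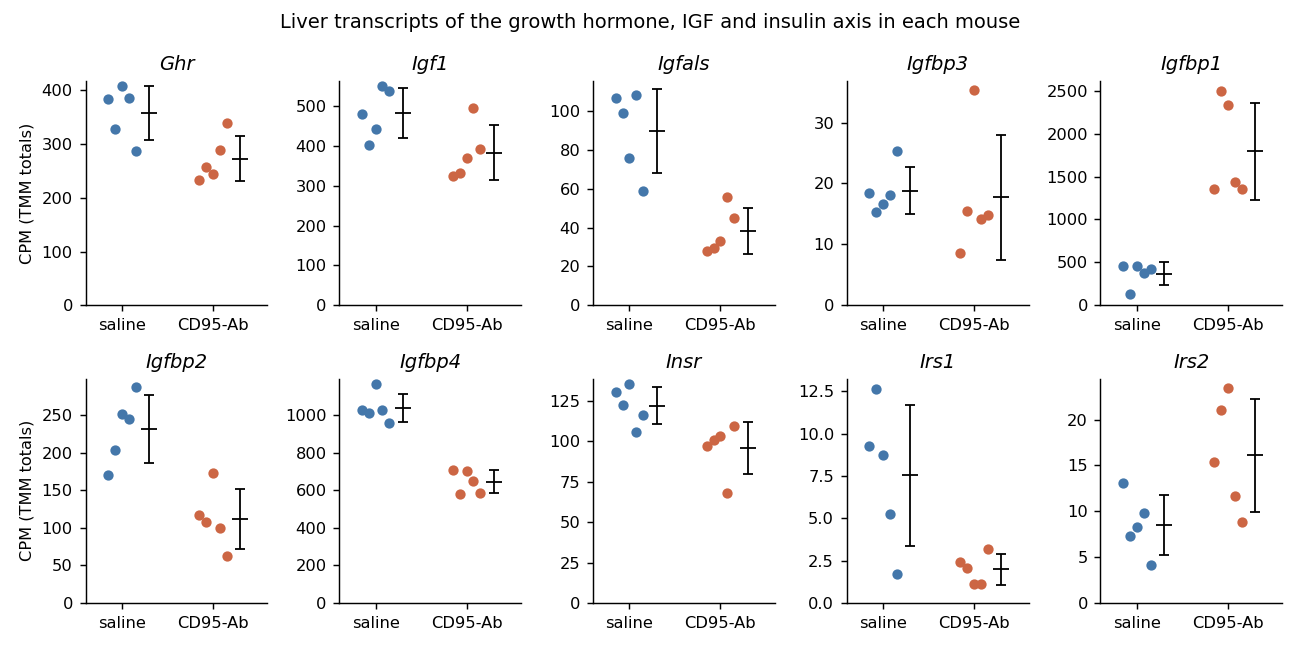
CPM of each of the 10 genes (vertical axis, starting at 0) in the 5 saline-injected and 5 CD95-Ab mice. Points are mice, in replicate order from left to right, and bars are mean ± SD. Igfbp1 lies above and Igfals and Igfbp4 lie below the saline-injected group without overlap, while the groups of Igf1, Ghr, Igfbp3, Insr, Igfbp2, Irs1 and Irs2 overlap.

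The growth hormone receptor and its best known hepatic product, Igf1, differed little. Igf1 (ENSMUSG00000020053; GRCm38 chromosome 10, 87858265 to 87937042) was at 482, 402, 442, 552 and 539 CPM in saline replicates 1 to 5 and at 325, 332, 369, 497 and 393 CPM in CD95-Ab replicates 1 to 5. CD95-Ab replicate 4 lay among the saline-injected mice, and the other treated mice lay below all of them. The mean was 483 ± 63 CPM in controls and 383 ± 69 CPM in treated mice, and the log2 fold change was -0.33 (95% interval -0.67 to 0.004, edgeR quasi-likelihood FDR = 0.0957). Thus Igf1 did not pass the test, and the interval includes a decrease of up to 0.67 on the log2 scale. Without CD95-Ab replicate 4 the log2 fold change was -0.46 (edgeR FDR = 0.0188), and scaled to the hepatocyte markers the sign turned, with a log2 fold change of 0.47 (edgeR FDR = 0.0364).

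Ghr (ENSMUSG00000055737; chromosome 15, 3317760 to 3583492) was at 384, 327, 408, 386 and 286 CPM in saline-injected mice and at 234, 257, 244, 289.6 and 338 CPM after CD95-Ab. The highest treated mouse, CD95-Ab replicate 5, and CD95-Ab replicate 4 reached into the range of the saline-injected group, whose lowest value was that of saline replicate 5. Ghr fell from 358 ± 50 to 273 ± 42 CPM (log2 fold change -0.39, standard error 0.15, edgeR FDR = 0.0457). This call was close to the threshold and was lost when any of saline replicates 1 to 4 or CD95-Ab replicates 1 to 3 was left out (edgeR FDR up to 0.101). It was also lost with all mice when no filter on low counts was used (edgeR FDR = 0.0548) and when 10 counts were asked of every mouse (edgeR FDR = 0.0556). Scaled to the hepatocyte markers, the log2 fold change was 0.42 (edgeR FDR = 0.103).

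In the ternary complex, Igfals fell and Igfbp3 did not pass the test, and the difference between them was not tested. Igfals (ENSMUSG00000046070; chromosome 17, 24865997 to 24882010), the acid-labile subunit, was at 107, 99.2, 76.0, 108 and 59.0 CPM in saline-injected mice. After CD95-Ab it was at 27.9, 29.6, 33.4, 56.0 and 45.0 CPM. Every treated mouse was below every saline-injected mouse, with the narrowest gap between CD95-Ab replicate 4 and saline replicate 5. Igfals fell to 42.7% of its saline level (log2 fold change -1.23, standard error 0.23, edgeR FDR = 0.000997), and only 4.34% of tested genes had a lower log2 fold change. Scaled to the hepatocyte markers it was at -0.44 and did not pass (edgeR FDR = 0.159).

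Igfbp3 (ENSMUSG00000020427; chromosome 11, 7206086 to 7213923) was at 18.4, 15.3, 16.6, 18.2 and 25.3 CPM in saline-injected mice and at 8.60, 15.5, 35.4, 14.2 and 14.9 CPM after CD95-Ab. CD95-Ab replicate 3 held the highest and CD95-Ab replicate 1 the lowest value of all 10 mice, so the treated group enclosed the saline-injected group. The log2 fold change was -0.09 (95% interval -0.76 to 0.59, edgeR FDR = 0.834), which leaves room for a change of either sign. It was -0.51 without CD95-Ab replicate 3 (edgeR FDR = 0.0661), 0.088 without CD95-Ab replicate 1 and 0.031 without saline replicate 5, and 0.66 when scaled to the hepatocyte markers (edgeR FDR = 0.0257). CD95-Ab replicate 3 also had the highest summed erythroid markers (34009 CPM) and neutrophil markers (448 CPM) of all mice. Their part in the value was not tested.

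Igfbp1 (ENSMUSG00000020429; chromosome 11, 7197782 to 7202546), the binding protein under control of insulin, had the largest increase of the axis. It was at 454, 136, 454, 371 and 418 CPM in saline-injected mice and at 1357, 2497, 2329.7, 1432 and 1356 CPM after CD95-Ab. The lowest treated mouse was thus far above the highest saline-injected mouse, and CD95-Ab replicates 2 and 3 stood above the other treated mice. Igfbp1 rose 4.89-fold (log2 fold change 2.29, standard error 0.33, 95% interval 1.57 to 3.01, edgeR FDR = 0.000168). Leaving out single mice gave log2 fold changes from 2.08 to 2.38, the lowest without saline replicate 2, and scaling to the hepatocyte markers gave 3.09. Igfbp1 and Igfbp3 are neighbors on chromosome 11, transcribed toward each other with 3539 bases between their ends, and only the first of the pair changed past the test. A direct test of the difference between them was not run.

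Igfbp4 (ENSMUSG00000017493; chromosome 11, 99041244 to 99054392), which encodes a small IGF carrier, was at 1023, 1012, 1163, 1028 and 955 CPM in saline-injected mice and at 707, 581, 701, 646 and 582 CPM after CD95-Ab. In CPM it varied least between mice, with a coefficient of variation of 7.4% and 9.53%, and the groups were apart. In FPKM the groups overlapped, with 248 to 493 in saline-injected mice and 168 to 333 after CD95-Ab. Igfbp4 fell to 62.1% of its saline level (log2 fold change -0.69, standard error 0.13, edgeR FDR = 0.0011), a difference that was 0.10 when scaled to the hepatocyte markers (edgeR FDR = 0.619).

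Igfbp2 (ENSMUSG00000039323; chromosome 1, 72824503 to 72852474), the binding protein that in mouse liver is known to respond to feeding state and growth hormone, was at 170.4, 204, 251, 245 and 288 CPM in saline-injected mice. After CD95-Ab it was at 117, 108, 173, 99.5 and 62.1 CPM, where CD95-Ab replicate 3 just exceeded saline replicate 1. Igfbp2 fell to 48.3% of its saline level (log2 fold change -1.05, standard error 0.24, edgeR FDR = 0.00366), and scaled to the hepatocyte markers it was at -0.29 (edgeR FDR = 0.177).

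**Figure D2:**
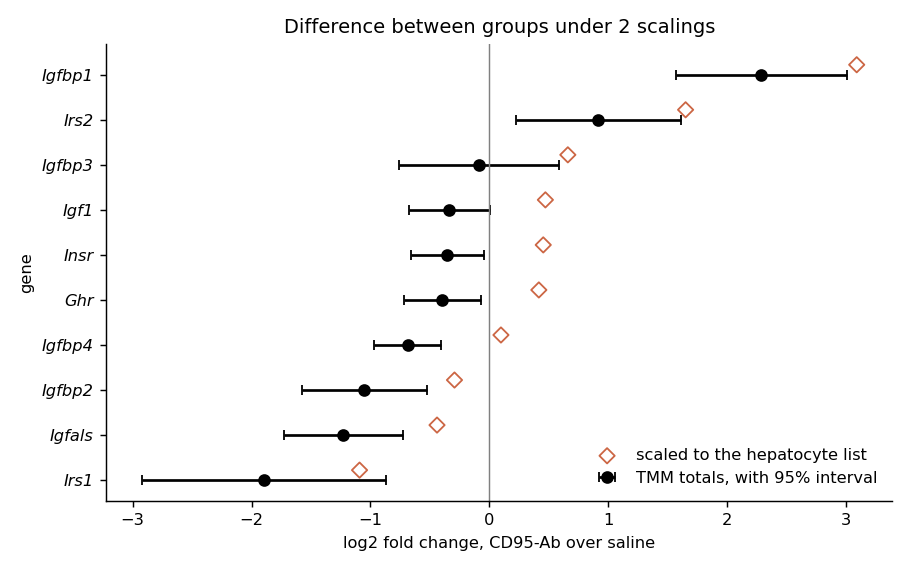
Log2 fold change of CD95-Ab over saline (horizontal axis) for each gene (vertical axis, ordered by value). Filled circles with bars are TMM-scaled values with their 95% intervals, and open diamonds are values with libraries scaled to the hepatocyte markers. Diamonds lie to the right of the circles for all 10 genes, and those of Ghr, Igf1, Insr, Igfbp3 and Igfbp4 lie on the other side of 0, while Igfbp1 and Irs2 stay above and Igfals, Igfbp2 and Irs1 stay below 0.

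Because Igfbp1 rose while Igfbp2 and Igfbp4 fell, the make-up of the binding protein transcripts turned over. Of the summed FPKM of Igfbp1 to Igfbp4, Igfbp1 took 35.7%, 13.8%, 31.0%, 28.8% and 35.0% in saline-injected mice and 69.9%, 83.8%, 78.2%, 77.2% and 77.2% after CD95-Ab. Igfbp4 held the largest share in all saline-injected mice, 47.5% ± 9.0, and 16.2% ± 4.1 after CD95-Ab, and Igfbp2 went from 22.6% ± 4.6 to 6.04% ± 1.49. In saline replicate 5, however, Igfbp4 and Igfbp1 were nearly level, at 35.07% and 34.99%. Igfbp3 was a minor part throughout, at 0.953% ± 0.225 and 0.470% ± 0.185. The summed level of these binding proteins was 707 to 1034 FPKM in saline-injected mice and 1070.2 to 2027 FPKM after CD95-Ab. These sums were not adjusted for the total FPKM of all genes in a mouse. That total ran from 633191 to 790282 in saline-injected mice and from 665298 to 852882 after CD95-Ab. It was highest in CD95-Ab replicate 4, the treated mouse with the lowest sum, so the narrow gap between the groups is not secure. Per Igf1 transcript, the sum was 2.03 to 3.82 in saline-injected mice and 3.77 to 12.0 after CD95-Ab, with CD95-Ab replicate 4, the mouse with the highest Igf1 level of its group, just below the highest saline-injected mouse. These shares are a description of transcripts with no test, and neither proteins nor proteases of the binding proteins were measured.

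**Figure D3:**
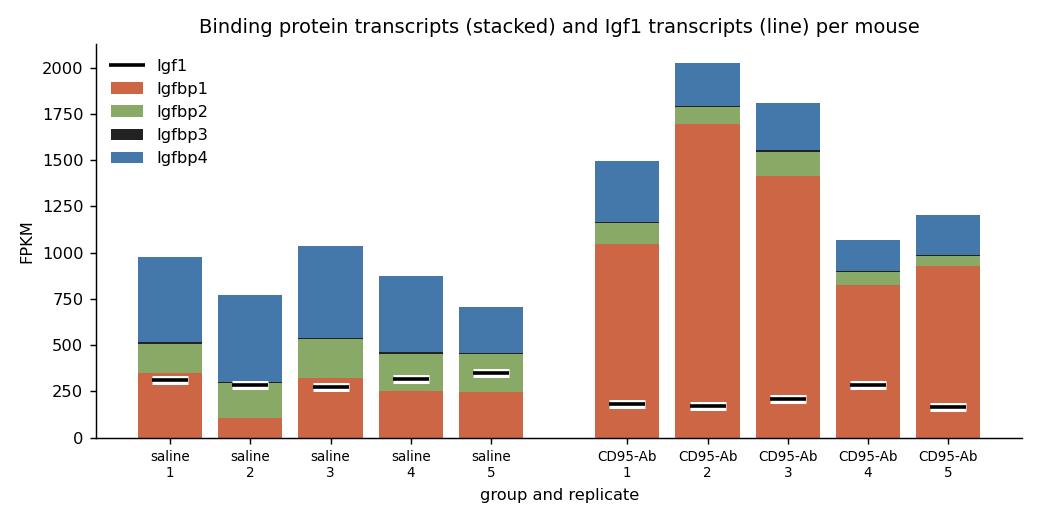
FPKM (vertical axis) of Igfbp1, Igfbp2, Igfbp3 and Igfbp4, stacked, in each mouse (horizontal axis), with the FPKM of Igf1 as a black line. Igfbp1 makes up 69.9% to 83.8% of the stack in the CD95-Ab mice and 13.8% to 35.7% in the saline-injected mice, and the Igf1 line lies at 167 to 284 FPKM after CD95-Ab and at 271 to 349 FPKM in controls.

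In order of FPKM, Igfbp4 led in saline-injected mice (416 ± 98), followed by Igf1 (306 ± 30), Igfbp1 (255 ± 94), Igfbp2 (193 ± 21), Ghr (148 ± 22), Igfals (45.9 ± 14.0), Insr (13.6 ± 2.3), Igfbp3 (8.10 ± 0.90), Irs2 (2.27 ± 1.0) and Irs1 (0.894 ± 0.549). The ranges of neighbors overlapped from Igfbp4 down to Ghr, and those of Irs2 and Irs1 overlapped as well. After CD95-Ab, Igfbp1 led (1183 ± 364) with a range apart from that of Igfbp4 (240.4 ± 60.8), and Igf1 (202 ± 49), Ghr (108 ± 8), Igfbp2 (91.1 ± 30.2), Igfals (17.9 ± 4.3), Insr (10.1 ± 2.3), Igfbp3 (7.13 ± 3.69), Irs2 (3.94 ± 1.49) and Irs1 (0.218 ± 0.112) followed. There the ranges overlapped between Igfbp4 and Igf1, between Ghr and Igfbp2, and from Insr down to Irs2. Beside the move of Igfbp1, the order changed only in that Ghr and Igfbp2, whose ranges overlapped in both groups, traded places.

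Of the insulin receptor and its adaptors, Irs1 fell, Irs2 rose and Insr did not pass the test. Insr (ENSMUSG00000005534; chromosome 8, 3122061 to 3279617) was at 131, 123, 136, 106 and 116 CPM in saline-injected mice and at 97.1, 101, 103, 68.2 and 109.5 CPM after CD95-Ab. CD95-Ab replicate 4 was lowest by far, and CD95-Ab replicate 5 lay within the saline range. The log2 fold change was -0.35 (95% interval -0.66 to -0.05), and Insr missed the threshold after adjustment (edgeR FDR = 0.0565). With all mice it passed under RLE size factors (edgeR FDR = 0.0482), upper quartile factors (edgeR FDR = 0.0208) and in DESeq2 (FDR = 0.0273). It also passed without saline replicate 4 (edgeR FDR = 0.036) and without CD95-Ab replicate 5 (edgeR FDR = 0.0452), and scaled to the hepatocyte markers the log2 fold change was 0.46 (edgeR FDR = 0.0531).

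Irs1 (ENSMUSG00000055980; chromosome 1, 82233101 to 82291416), an adaptor that links the receptor to PI3 kinase, was at 9.27, 12.7, 8.73, 5.23 and 1.72 CPM in saline-injected mice and at 2.44, 2.07, 1.11, 1.09 and 3.21 CPM after CD95-Ab. Saline replicate 5 stood among the treated mice, and the other saline-injected mice were above all of them. Irs1 fell to 26.8% of its saline level (log2 fold change -1.90, standard error 0.47, edgeR FDR = 0.00586), the lowest value of the axis, and only 1.35% of tested genes had a lower log2 fold change. Scaled to the hepatocyte markers it was at -1.09 (edgeR FDR = 0.0647). The annotated gene Gm9747 overlaps Irs1 on the opposite strand and averaged 8.32 CPM in controls and 1.16 CPM in treated mice, so reads may have been split between them. The sum of both was 18.1, 25.4, 16.3, 12.4 and 7.03 CPM in saline-injected mice and 3.40, 2.64, 1.35, 2.91 and 5.40 CPM after CD95-Ab, where the groups no longer overlapped. The genes overlapping Igf1, Insr and Irs2 held at most 27, 2 and 3 counts in any mouse.

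Irs2 (ENSMUSG00000038894; chromosome 8, 10984681 to 11008458), the adaptor that fasting is known to raise in liver, was at 13.1, 7.32, 8.23, 9.85 and 4.12 CPM in saline-injected mice and at 15.4, 21.1, 23.5, 11.7 and 8.88 CPM after CD95-Ab. CD95-Ab replicates 1 to 3 were above all saline-injected mice, and CD95-Ab replicates 4 and 5 lay among them. Irs2 rose 1.89-fold (log2 fold change 0.92, standard error 0.32, edgeR FDR = 0.0319). The call was lost without saline replicate 2, 3 or 5 and without CD95-Ab replicate 2 or 3 (edgeR FDR from 0.0535 to 0.0789), with unscaled totals (edgeR FDR = 0.0765) and with limma on FPKM (FDR = 0.0789), and it held when scaled to the hepatocyte markers (log2 fold change 1.65, edgeR FDR = 0.000374). In the same mice as Igfbp1, CD95-Ab replicates 2 and 3, Irs2 reached its highest levels.

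The count and the FPKM of a gene together show which transcript length RSEM assigned to it, and this length moved between mice for some of these genes. It was calibrated on 147 genes with a single annotated transcript, for which 83.7% of values were within 5% of the annotated length. For Igf1 the implied length was 1775, 1636, 1715, 1767 and 1362 bases in saline-injected mice and 2071, 1993, 1611, 1505 and 2403 bases after CD95-Ab, a range of 58.3% of the mean. CD95-Ab replicates 1, 2 and 5 were above all saline-injected mice, and saline replicate 5 was lowest, so a longer mix of Igf1 transcripts was assigned in some treated mice, and the groups overlapped. Igf1 gave a log2 fold change of -0.33 on counts and of -0.63 on FPKM (limma FDR = 0.00671), which differ in this length and in the scaling of libraries. For Igfbp4 the length was 2443 to 2541 bases in 7 mice and stood at 3396 in saline replicate 5, 3316 in CD95-Ab replicate 4 and 2778 in CD95-Ab replicate 5. For Ghr it ranged from 2153 to 2834 bases without setting the groups apart. Igfals, Igfbp1, Igfbp3, Insr and Irs2 kept their implied length within a range of at most 0.991% of the mean. The length for Irs2, 4022 to 4034 bases, differs from the 6323 bases of its single transcript in GENCODE M21, so the gene model counted by the authors was not that of M21.

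**Figure D4:**
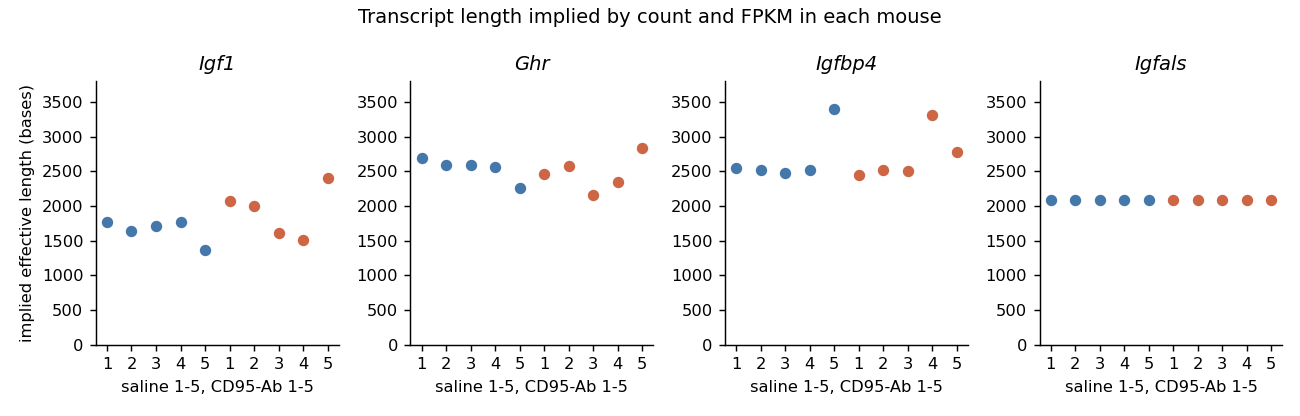
Transcript length in bases implied by count and FPKM (vertical axis, from 0) for Igf1, Ghr, Igfbp4 and Igfals in each mouse (horizontal axis, 5 saline-injected mice in blue and 5 CD95-Ab mice in orange). Igf1 varies from 1362 to 2403 bases and Igfbp4 stands apart in saline replicate 5 and CD95-Ab replicate 4, while Igfals stays between 2082 and 2088 bases.

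Around these genes, 111 others of the pathway were listed by role in 9 lists, of which 106 passed the filter, 22 rose and 32 fell. That is 20.8% higher and 30.2% lower, against 25.4% and 22.0% of all tested genes, with a median log2 fold change of -0.11 against 0.006. Scaled to the hepatocyte markers, 60 were higher and 9 lower.

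The brakes on cytokine and growth hormone receptors stood out among the lists by their values, with a median log2 fold change of 1.80. Of 8 brakes, 5 were higher and none lower, against 25.4% and 22.0% of all tested genes. Socs1, which blocks JAK kinases, rose from 0.147 ± 0.141 to 4.70 ± 2.05 CPM (log2 fold change 4.95). Socs1 held at most 13 counts in any saline-injected mouse, near the counting limit, so the size of its fold change is uncertain. Socs3, the brake on IL-6 signaling that can also bind the growth hormone receptor, rose from 16.1 ± 8.8 to 189.6 ± 74.1 CPM (log2 fold change 3.56). Cish, a STAT5 target that restrains the same receptor, rose from 4.98 ± 2.00 to 49.0 ± 14.5 CPM (log2 fold change 3.29). Each of these was higher in 5 of 5 treated mice than in any saline-injected mouse, and edgeR FDR values were 6.33e-06 to 5.03e-05. Socs2, another STAT5 target and the main brake on growth hormone action, did not pass the test, at 17.8 ± 7.3 and 19.8 ± 7.8 CPM (95% interval of the log2 fold change -0.56 to 0.87, edgeR FDR = 0.722).

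STAT sites of the form TTCNNNGAA, found in 8.30% of the 32851 windows of 250 bases before to 50 after a start, are printed with 9 bases on each side, since such sites bind the STAT factors downstream of growth hormone and cytokines. Capitals mark the site of each line, and the lines of Cish overlap.
Igfals, first annotated start, chr17:24877599-24877625, plus strand: atctataatTTCTCAGAAaagaggctg
Igfals, second annotated start, chr17:24878164-24878190, plus strand: tgccaggtgTTCCTAGAAgaggccctg
Cish, first site, chr9:107296650-107296676, plus strand: cgcccagttTTCCTGGAAagttcttgg
Cish, second site, chr9:107296661-107296687, plus strand: cctggaaagTTCTTGGAAatctgtcaa
Socs3, chr11:117969503-117969529, minus strand: aaaccagccTTCTTAGAAgggaggggg
Igfals fell while Cish and Socs3 rose, so genes with these letters near a start changed in both directions. For Socs3 the bases just after this start were not found in a GENCODE M21 transcript. Of the other genes of the axis, those with a RefSeq window (Igf1, Ghr, Igfbp1, Igfbp2, Igfbp3, Igfbp4, Irs1 and Irs2) held no such letters within it.

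Among growth hormone and JAK-STAT signaling genes, 2 of 8 rose and 3 fell, against 25.4% and 22.0% of all tested genes. Jak2, the kinase of the growth hormone receptor, rose from 11.7 ± 1.9 to 47.7 ± 8.2 CPM (log2 fold change 2.02, edgeR FDR = 2.05e-06), and Stat3 rose from 114 ± 8 to 224 ± 36 CPM (log2 fold change 0.97). The prolactin receptor Prlr fell from 132 ± 18 to 54.2 ± 10.3 CPM (log2 fold change -1.28), and Stat5b, the main STAT of growth hormone in liver, fell from 45.8 ± 9.0 to 31.3 ± 7.1 CPM (log2 fold change -0.55, edgeR FDR = 0.0219). The adaptor Sh2b1 fell as well (log2 fold change -0.46).

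Of the STAT5-dependent and sex-biased targets, 2 of 11 were higher, 3 lower and 6 not called. These shares were not far from the 25.4% higher and 22.0% lower of all tested genes. The male-biased genes Cyp7b1 (log2 fold change 1.42) and Mup20 (0.86) rose. Mup20 belongs to a family of related genes, and how reads were assigned among them was not examined. Cux2, a female-biased factor at 2.26 ± 1.52 CPM in saline-injected males, fell to 0.295 ± 0.149 CPM (log2 fold change -2.96), the male-biased repressor Bcl6 fell (-1.54), and so did Cyp2d9 (-0.62), which is male-biased as well. The male-biased genes Hsd3b5 (-1.28, edgeR FDR = 0.061), Elovl3 (0.15, edgeR FDR = 0.826) and Selenbp2 (0.30, edgeR FDR = 0.544) did not pass the test.

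Of the remaining IGF genes, 4 of 10 tested rose and none fell, and 5 of the 15 on the list were too low to test. Over all tested genes, 25.4% rose and 22.0% fell. Stc1, a stanniocalcin that inhibits the protease cleaving IGFBP-4, rose from 0.126 ± 0.062 to 5.25 ± 3.66 CPM (log2 fold change 5.38, edgeR FDR = 1.21e-05). Stc1 held at most 7 counts in any saline-injected mouse, near the counting limit, so the size of its fold change is uncertain. The mRNA-binding protein gene Igf2bp2 rose from 0.907 ± 0.447 to 10.3 ± 2.0 CPM (log2 fold change 3.53). The IGF receptor Igf1r, which hepatocytes barely express, rose from 0.31 ± 0.11 to 1.22 ± 0.48 CPM (log2 fold change 1.95). Igfbp7, a gene of endothelial and stellate cells, rose as well, from 24.9 ± 7.3 to 75.8 ± 17.8 CPM. Beside this rise, 8 of 10 sinusoidal endothelial and 6 of 10 stellate cell markers rose, with summed levels of 91.0 to 184 and 263 to 366 CPM in controls and 257 to 480.4 and 521 to 955 CPM in treated mice. None of these markers was at 0 in all controls, and their part in the result was not tested.

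Genes of the insulin signal relay changed by small amounts, with 4 of 24 higher, 7 lower and a median log2 fold change of -0.21. Of all tested genes, 25.4% were called higher and 22.0% lower. Shc1 (0.51), Pik3cb (0.47) and Grb2 (0.38) had the largest increases, and Tsc1 (-0.94), Foxo3 (-0.81) and Sos1 (-0.69) the largest decreases among those that passed. Foxo1, the factor that insulin holds in the cytoplasm, did not pass (log2 fold change -0.24, edgeR FDR = 0.53). Among brakes on the insulin signal and proteins of insulin clearance, 3 of 16 rose and 7 fell. The pseudokinase genes Trib2 (1.74) and Trib1 (1.48) and the adaptor Sh2b2 (1.17) rose, and the receptor-binding adaptor Grb7 (-1.78), Trib3 (-1.20) and Grb14 (-0.95), an inhibitor of the insulin receptor, fell.

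Genes that insulin represses mostly went in the opposite direction to Igfbp1 and Irs2. Of 11 on the list, 7 fell and 1 rose, with a median log2 fold change of -0.97. Over all tested genes, 22.0% fell and 25.4% rose. G6pc, the last enzyme of glucose release, fell from 580 ± 293 to 32.3 ± 14.6 CPM (log2 fold change -4.16, edgeR FDR = 1.53e-05), which is 17.9-fold lower. The transcription factor Klf15 fell from 130.1 ± 24.4 to 28.7 ± 5.3 CPM (-2.18), and Angptl4, an inhibitor of lipoprotein lipase, fell from 124 ± 48 to 39.6 ± 9.8 CPM (-1.65). Pdk4, a kinase that shuts down pyruvate dehydrogenase in fasting, rose from 3.93 ± 2.78 to 10.6 ± 1.3 CPM (log2 fold change 1.44, edgeR FDR = 0.0161). Genes that insulin induces did not rise either. Of 10, 4 fell and none rose, among them the glycogen synthase Gys2 (-1.97) and the lipogenic factor Srebf1 (-1.26). The genes known to be lowered and those known to be raised by insulin both had negative median log2 fold changes, at -0.97 and -0.50. The median of the hepatocyte markers was -0.64. Whether insulin or the share of hepatocytes had a part in these values was not tested.

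Of the genes that carry the glucagon and glucocorticoid inputs, 1 of 8 rose and 1 fell, against 25.4% and 22.0% of all tested genes. Sik1, a kinase induced by cAMP, rose from 25.6 ± 16.2 to 118.9 ± 38.0 CPM (log2 fold change 2.22, edgeR FDR = 0.000945), and Tsc22d3, a gene induced by glucocorticoids, fell from 109.6 ± 53.9 to 22.8 ± 2.9 CPM (-2.26, edgeR FDR = 9.9e-05).

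**Figure D5:**
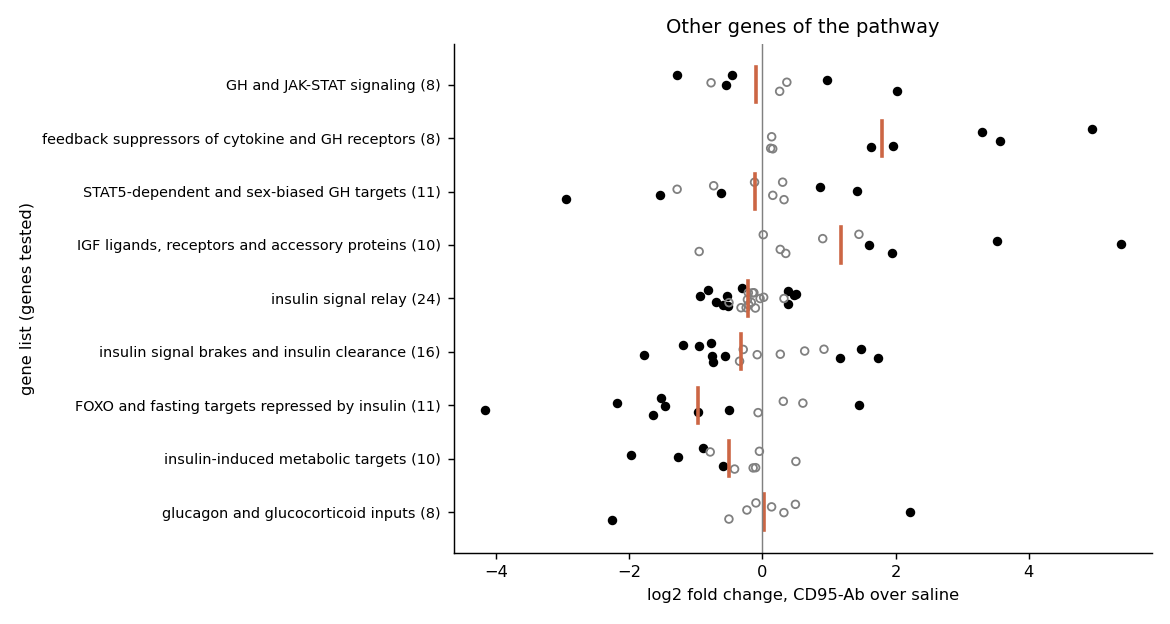
Log2 fold change of CD95-Ab over saline (horizontal axis) for the genes of each of the 9 lists (vertical axis, number of genes tested in parentheses). Filled points passed an FDR of 0.05, open points did not, and orange bars are medians, which run from -0.97 for the genes repressed by insulin to 1.80 for the feedback suppressors.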

How the data were processed

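Liver RNA (500 ng per library, TruSeq) of 5 saline-injected and 5 CD95-Ab mice was read by the authors as pairs of 100 bases. Reads were assigned to genes with RSEM 1.2.19, as stated in the methods and in the submitters' processing notes. In the deposited tables the expected counts are whole numbers without normalization, and the FPKM values they deposited are scaled for transcript length and library by RSEM. A human annotation is named in the methods, whereas the identifiers are those of mouse Ensembl genes. The mouse release and build are not given in the sources used here. Names and positions were taken by identifier from GENCODE M21 (GRCm38), which holds 37606 of the 38922 identifiers, and all 195 listed symbols matched. Overlapping genes may share reads, since the counting is not stated to use strand.

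Genes were kept by filterByExpr (minimum count 10), scaled with TMM and tested in edgeR 4.0.16 (R 4.3.3) by quasi-likelihood, on group alone, with Benjamini-Hochberg adjustment over all tested genes (FDR). Standard errors were derived from the F statistic. The fit was also run on simulated counts in which few genes were changed, up and down alike. That setting is unlike these livers, where 47.3% of genes were called, so it cannot vouch for the calls given here. DESeq2 1.42.0, limma 3.58.1 on log2(FPKM + 0.1), other scalings and filters, the replicate number as a block and leaving out each mouse were alternatives. The implied transcript length was added after seeing the values. Members and lists were chosen with earlier results of these data known. The genes named are all 10 of the axis, up to 3 called genes in each direction of a list, and a few uncalled ones (Socs2, Foxo1, Hsd3b5, Elovl3, Selenbp2) chosen after their values were seen. A gene that this rule would name is not reported here. No sequencing batch is given. The chi-square per degree of freedom between mice of a group was 41.0 to 575 over 20 pairs, so each mouse was counted as 1 sample. Upstream sequences are those of RefSeq (GRCm38.p6).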

Additional observations from a re-analysis of the deposited data

Results flagged for a closer look

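In each group of 5 mice the gap of the highest or lowest mouse to its neighbor was set against the range of the group, with a limit of 0.71. Of 20 such groups, 2 were beyond it, and chance alone gives about 1 in 20. Igfbp3 in CD95-Ab replicate 3, at 35.4 CPM against 8.60 to 15.5 CPM in the other mice of that group, had a gap of 0.742 of the range. Igfbp1 in saline replicate 2, at 136 CPM against 371 to 454 CPM in the other saline-injected mice, had a gap of 0.737 of the range. Without that mouse the log2 fold change of Igfbp1 was 2.08, against 2.29 with all mice.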

How the results depend on the processing

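The direction and call of Igfbp1 held under all 20 alternatives, and those of Igfals, Igfbp2 and Irs1 under all but the scaling to the hepatocyte markers, where the direction was kept. That scaling turned the log2 fold changes of Ghr (0.42), Igf1 (0.47), Igfbp3 (0.66), Igfbp4 (0.10) and Insr (0.46), called 4 genes of the axis higher and 0 lower, and called 60 pathway genes higher and 9 lower. The count of higher genes of the axis was 1 instead of 2 with unscaled totals, with limma on FPKM and at an FDR of 0.01. Leaving out single mice gave 1 to 2 higher and 4 to 6 lower genes of the axis, and 19 to 24 higher and 28 to 34 lower pathway genes. Over the same fits the log2 fold change of Igfbp3 ran from -0.51 to 0.088. The share of Igfbp1 among binding protein transcripts after CD95-Ab was 68.9% on counts against 77.2% on FPKM, and 75.6% to 79.1% without single mice. Igf1 passed the test as lower in DESeq2 (FDR = 0.0453), with limma on FPKM (FDR = 0.00671), and in edgeR with upper quartile factors (FDR = 0.0475) and unscaled totals (FDR = 0.0243). Mice with the same replicate number did not deviate together (correlations from -0.274 to 0.257, mean 0.037). This gave no sign of a pairing by number, but so few correlations cannot exclude one. With the replicate number as a block, Ghr was at -0.40 (edgeR FDR = 0.103) and no other call of the axis changed. The lowest levels, those of Irs1, rest on as few as 27 counts in a mouse. Mice were housed in groups, and which of them shared a cage or a day is not given in the sources used here.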

Other observations

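The genes whose profile over the 10 mice was most like that of a member were found by the root mean square difference of log2 levels, each relative to its own saline mean, among 7049 other genes with a mean of 10 CPM or more. Closest to Igf1 were Aarsd1 (0.10), Pgrmc1 (0.105) and Slc6a13 (0.108), against a median of 0.466 over all genes compared. Closest to Igfals were Nox4 (0.173), Pde9a (0.221) and Agtr1a (0.241), against a median of 0.954. Closest to Igfbp1 were Tinagl1 (0.302), Col4a2 (0.329) and Arhgap31 (0.367), against a median of 1.80, and their log2 fold changes were 2.34, 2.42 and 2.35. These are distances between profiles that include the difference between the groups, with no test.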
